A study of Oryza sativa with 8 samples.

Results

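CP29, CP26 and CP24 are the minor antenna proteins of photosystem II, and their transcripts were compared between wild-type rice and a line that overexpresses the transcription factor mEmBP-1a. They were taken by locus ID, Os07g0558400 for CP29 (Lhcb4), Os11g0242800 for CP26 (Lhcb5) and Os04g0457000 for CP24 (Lhcb6). The rule for membership uses no measured value, but the 3 genes were picked with earlier results of these data known. All 3 loci were found among the 36850 rows of the count table, and all 3 passed the filter on low counts that left 20690 tested genes. The pairing of locus with protein comes with the member list and could not be checked against a gene annotation here.

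RNA was sequenced from leaves of field-grown rice (Oryza sativa), from the second leaf counted from the top, at heading and at about 10 in the morning. One group was labelled wild type (WT), and its cultivar is not given in the sources used here. The other group, mEmBP-OE-4, is a single overexpression line of mEmBP-1a, a bZIP factor from maize. The promoter that drives the transgene is not given in the sources used here, and the transgene's own expression was not analysed here. Each group had 4 libraries of 35627524 to 50800180 counts, and nothing in the labels states that replicates were separate plants, so the p-values reflect only how these libraries varied, part of which may be technical.

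In land plants the minor antenna proteins are nuclear-encoded members of the light-harvesting family that bind chlorophyll a, chlorophyll b and xanthophylls. They sit as monomers between the reaction-centre core of photosystem II and the outer trimers of LHCII, so they pass excitation energy inward and hold the supercomplex together. They also take part in the dissipation of excess light energy, and in Arabidopsis CP24 together with CP29 anchors the LHCII trimer that is bound with moderate strength.

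Transcripts of all 3 minor antenna proteins were more abundant in mEmBP-OE-4. CP29 rose 2.34-fold, CP26 rose 2.14-fold and CP24 rose 3.31-fold on TMM-scaled counts. All 3 calls were upward, where 20.1% of all tested genes were called higher and 39.2% were called in either direction. The median log2 fold change was 1.23 over the 3 loci and 0.00 over all tested genes. In bulk leaf RNA, more cells of a type and more RNA per cell cannot be told apart.

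CP29 is the monomer that borders the core and docks CP24. Levels are CPM, read counts relative to library size, on library sizes scaled by TMM, a method that sets most genes to no change. In WT, CP29 stood at 5075, 5050, 7615 and 6370 CPM in replicates 1 to 4. In mEmBP-OE-4 it stood at 10362, 16561, 13011 and 16527 CPM. The groups did not overlap, and the lowest mEmBP-OE-4 library, replicate 1, lay above the highest WT library, replicate 3. The mean level was 6027 ± 1225 CPM for WT and 14115 ± 3006 CPM for mEmBP-OE-4 (SD, n = 4). On the log2 scale the change was 1.23 (SE 0.23), for which adjusted p = 0.00299 in edgeR's quasi-likelihood F test, adjusted by the Benjamini-Hochberg method over all tested genes. A rise at least as large was seen in 9.11% of tested genes.

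CP26 is the monomer on the opposite flank of the core, beside the strongly bound LHCII trimer. Its WT libraries stood at 4702, 6320, 7587 and 6774 CPM in replicates 1 to 4. Its mEmBP-OE-4 libraries stood at 8834, 15755, 13569 and 16072 CPM. Replicate 1 was the lowest library of each group, and the groups did not overlap. The mean level was 6346 ± 1215 CPM for WT and 13558 ± 3340 CPM for mEmBP-OE-4 (SD, n = 4). The log2 fold change was 1.10 (SE 0.25, adjusted p = 0.00709 in the same edgeR fit), and 10.7% of tested genes had one at least as large. CP29 and CP26 were thus 2 of the genes whose groups did not overlap with mEmBP-OE-4 above WT, which held for 18.8% of tested genes.

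CP24 is the outermost of the 3 monomers and reaches the core through CP29. It stood at 146, 431, 330 and 354 CPM in WT replicates 1 to 4. In mEmBP-OE-4 it stood at 423, 1254, 886 and 1606 CPM. The groups overlapped, because mEmBP-OE-4 replicate 1 fell just short of WT replicate 2, while the other 3 mEmBP-OE-4 libraries lay above every WT library. The mean level was 315 ± 121 CPM for WT and 1042 ± 507 CPM for mEmBP-OE-4 (SD, n = 4). The log2 fold change was 1.73 (SE 0.43, adjusted p = 0.0111 in the same edgeR fit), a size reached by 4.93% of tested genes.

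**Figure D1:**
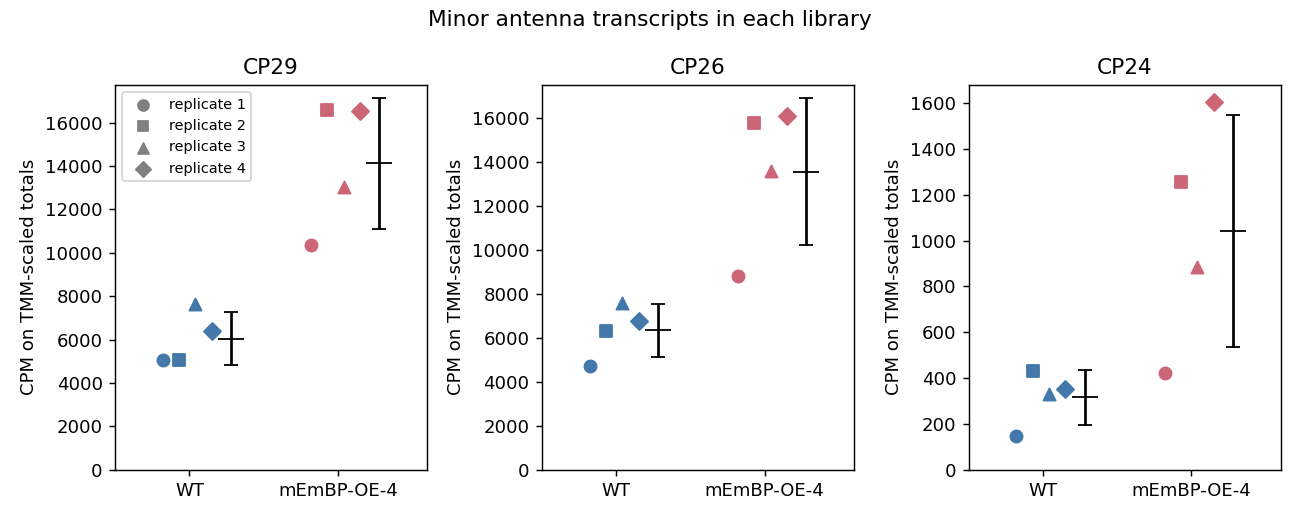
CPM on TMM-scaled library sizes for CP29, CP26 and CP24 in each library, with the replicate number as the symbol and the mean ± SD of each group (n = 4) beside the points. For CP29 and CP26 every mEmBP-OE-4 library lies above every WT library, while for CP24 mEmBP-OE-4 replicate 1 (423 CPM) lies below WT replicate 2 (431 CPM).

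CP24 varied more between replicates than the other 2 transcripts. Its coefficient of variation was 38.4% in WT and 48.7% in mEmBP-OE-4, against 20.3% and 21.3% for CP29 and 19.1% and 24.6% for CP26. The highest CP24 library was 2.96 times the lowest in WT and 3.80 times the lowest in mEmBP-OE-4. Counting error was small beside this spread. CP24 held 8883 to 62618 counts per library, for a counting error of at most 1.06%, and CP29 and CP26 held 238860 to 644325 counts, for an error of at most 0.205%. These errors cover the counting alone.

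Replicate 1 was the lowest CP24 library of both groups, at -1.01 log2 units from the group mean in WT and -1.14 in mEmBP-OE-4. Among the other replicates the order differed, with replicate 2 highest in WT and replicate 4 highest in mEmBP-OE-4. The labels do not say what a replicate number shares. Between libraries of the same number the CP24 level was 2.90, 2.91, 2.69 and 4.54 times higher in mEmBP-OE-4 for replicates 1 to 4. For CP26 these folds were 1.88, 2.49, 1.79 and 2.37, and for CP29 they were 2.04, 3.28, 1.71 and 2.59. Each transcript was thus higher in mEmBP-OE-4 in 4 of 4 pairs, and CP24 had the largest fold of the 3 in pairs 1, 3 and 4, but not in pair 2, where CP29 had it.

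Within groups, CP24 correlated more with CP26 than with CP29 over the 8 libraries. The deviations of log2 CPM from the group means correlated at r = 0.920 between CP24 and CP26, at 0.897 between CP26 and CP29 and at 0.698 between CP24 and CP29. These describe 8 libraries and share the scaling of each library. On that scale CP24 deviated by 2.01 log2 units for each log2 unit of CP26. The replicate 1 libraries lay farthest from the group means, at -1.01 (WT) and -1.14 (mEmBP-OE-4) for CP24 and -0.41 and -0.58 for CP26. They thus weigh most in this slope and in the r of 0.920, which were not computed without them. In WT replicates 2, 3 and 4, CP24 deviated by 0.56, 0.17 and 0.28 and CP26 by 0.02, 0.28 and 0.12, in the opposite order. Replicate 1 was the lowest mEmBP-OE-4 library for all 3 transcripts, and it was the lowest WT library for CP26 and CP24, while WT replicate 2 was just below it for CP29. The replicate 1 libraries also had the largest TMM factor of their group, 1.28 in WT and 1.01 in mEmBP-OE-4, against 1.11 to 1.17 and 0.741 to 0.891 in the others. The part of this in the low values was not tested. Without both replicate 1 libraries, a setting added once the values were known, the log2 fold changes were 1.26 for CP29, 1.11 for CP26 and 1.73 for CP24.

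**Figure D2:**
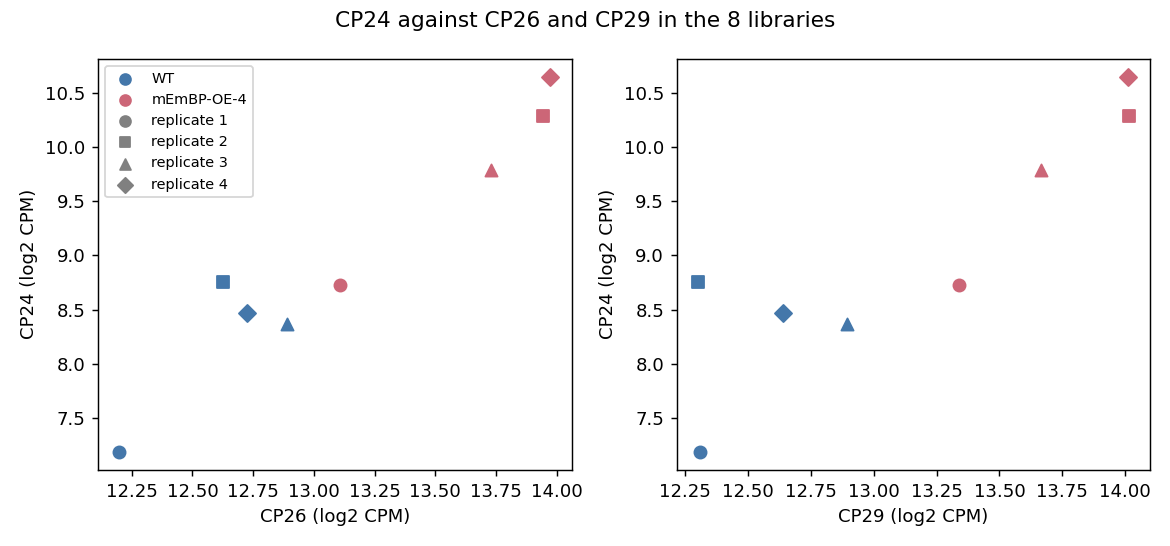
Log2 CPM of CP24 (vertical axes) against log2 CPM of CP26 (left) and CP29 (right) in the 8 libraries, coloured by group and with the replicate number as the symbol. Replicate 1 is the lowest mEmBP-OE-4 library on every axis, and WT replicate 2 lies high in CP24 for its CP29 level.

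The size of each rise depended on the scaling, because TMM factors themselves differed between the groups. With library totals as the only scaling, the median change of all tested genes moved to -0.47 on the log2 scale, and the calls shifted from 20.1% higher and 19.1% lower to 8.47% higher and 43.1% lower. All 3 minor antenna transcripts were still called higher there, with log2 fold changes of 0.73 for CP29, 0.60 for CP26 and 1.20 for CP24 (edgeR, adjusted p = 0.00122, 0.00532 and 0.0162). Relative to the median of all genes, these rises were 1.20, 1.07 and 1.67, close to the 1.23, 1.09 and 1.72 under TMM.

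As a plain share of each library, CP29 took 0.650%, 0.592%, 0.842% and 0.745% of the counts in WT replicates 1 to 4. It took 1.05%, 1.23%, 1.16% and 1.27% in mEmBP-OE-4 (two-sided exact permutation test, p = 0.0286, the smallest possible with 4 libraries a group). CP26 took 0.744% ± 0.103 of the WT counts and 1.13% ± 0.157 of the mEmBP-OE-4 counts (SD, n = 4, same exact test, p = 0.0286). For CP24 the shares were 0.0368% ± 0.0134 and 0.0844% ± 0.0334 (SD, n = 4, exact permutation p = 0.0571), and they overlapped between the groups. Together the 3 transcripts took 1.27% to 1.72% of a WT library and 1.99% to 2.63% of an mEmBP-OE-4 library, so these ranges did not overlap either.

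**Figure D3:**
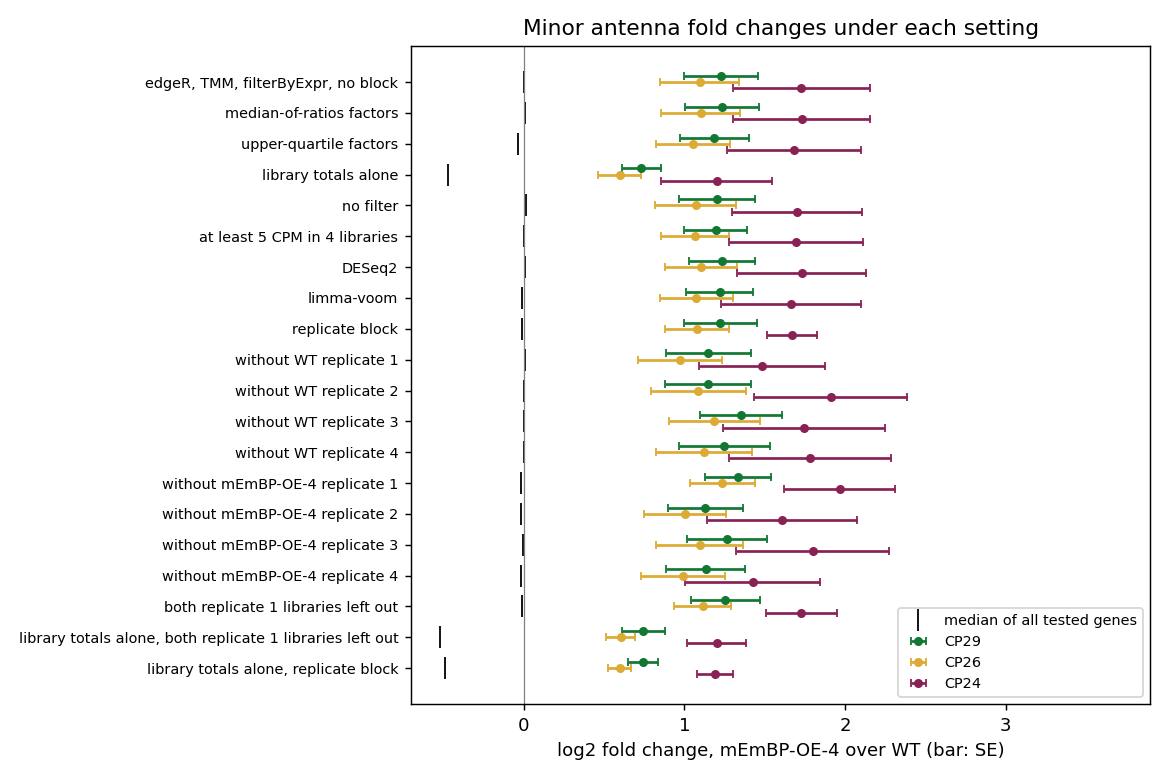
Log2 fold change (mEmBP-OE-4 over WT) of CP29, CP26 and CP24 with its standard error under each setting of scaling, filter, tool, block and left-out library, with the median of all tested genes as a black bar. Every estimate lies above 0, and on library totals the 3 estimates and the median of all genes shift down together.

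Whether the 3 transcripts rose by different amounts was tested on ratios of raw counts within each library, which do not depend on scaling. Transcript lengths were not available, so these ratios serve to compare changes and say nothing on how many molecules of each transcript were present. The CP26/CP29 ratio was 0.926, 1.25, 0.996 and 1.06 in WT replicates 1 to 4 and 0.853, 0.951, 1.04 and 0.972 in mEmBP-OE-4. The groups overlapped, and the difference in log2 ratio was -0.14 (SE 0.11, two-sided exact permutation p = 0.286, adjusted p = 0.314 over the 3 ratios). The CP24/CP29 ratio was 0.0287, 0.0853, 0.0433 and 0.0556 in WT and 0.0408, 0.0757, 0.0681 and 0.0972 in mEmBP-OE-4. Its difference in log2 ratio was 0.45 (SE 0.42, exact permutation p = 0.314, adjusted p = 0.314).

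CP24 came nearest to a separate change when it was set against CP26. The CP24/CP26 ratio was 0.0310, 0.0681, 0.0434 and 0.0523 in WT replicates 1 to 4 and 0.0478, 0.0796, 0.0653 and 0.0999 in mEmBP-OE-4. It was higher in mEmBP-OE-4 in 4 of 4 same-numbered pairs, but the groups overlapped. The difference in log2 ratio was 0.59 (SE 0.33, exact permutation p = 0.143, adjusted p = 0.314). Within pairs 1 to 4 the differences in log2 ratio were 0.63, 0.22, 0.59 and 0.93, with a paired SE of 0.15. An exact sign-flip test on them gave p = 0.125, the smallest that 4 pairs can give, so the paired comparison could not have passed the threshold. A different rise was thus not shown for any pair of transcripts, and these values do not show that CP24 and CP26 rose alike.

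**Figure D4:**
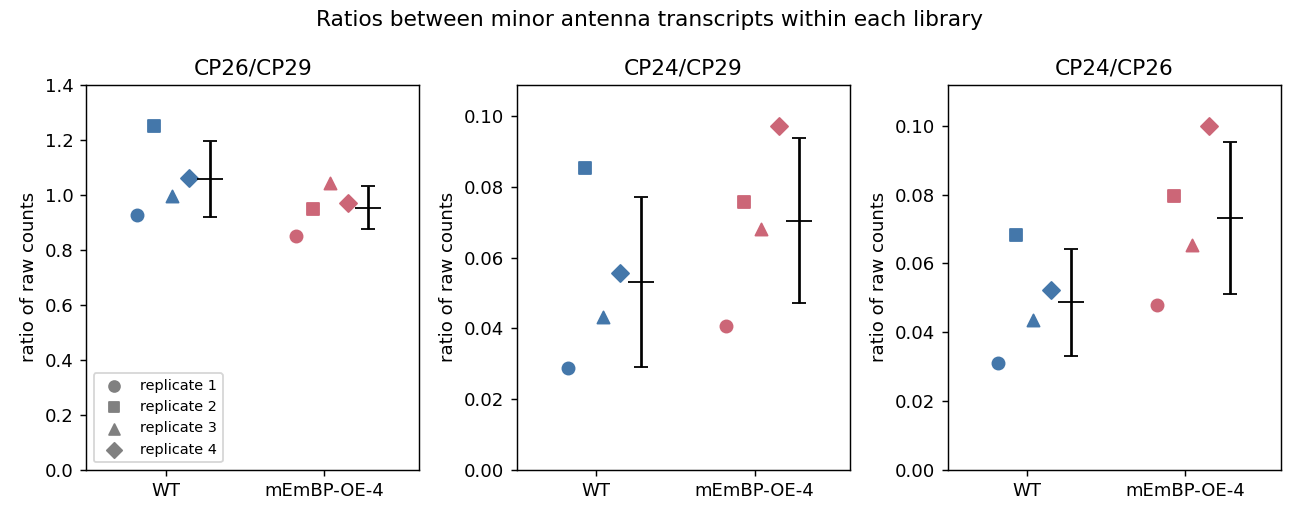
Ratios of raw counts within each library for CP26/CP29, CP24/CP29 and CP24/CP26, with the replicate number as the symbol and the mean ± SD of each group (n = 4). The groups overlap in all 3 ratios, and CP24/CP26 is higher in mEmBP-OE-4 for each replicate number.

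The minor antenna transcripts were next set against those of the proteins around them. The lists of other loci were written from recalled locus IDs, which neither the count table nor the gene table pairs with names. The major LHCII list stands for the trimeric outer antenna of photosystem II. On it 4 of 5 loci rose and 1 missed the threshold. Their median log2 fold change was 0.79, in a range from 0.24 to 2.63. The number called was 1 on library totals alone (median 0.30). It was also 1 with mEmBP-OE-4 replicate 2 or 4 or WT replicate 1, 2 or 4 left out (medians 0.69 to 0.81). All 3 minor antenna loci remained called in each of these settings, as did all loci on the extrinsic and PsbS lists below. On the LHCI list, for the antenna of photosystem I, 4 of 6 loci rose and 2 missed the threshold. The nearer of them had an adjusted p of 0.0501 in edgeR. The median was 0.76, in a range from -0.06 to 1.37. With median-of-ratios factors, DESeq2, limma-voom or the filter at 5 CPM, 5 rose. On library totals alone 3 rose and 1 fell. With mEmBP-OE-4 replicate 4 or WT replicate 1, 2 or 4 left out, 2 rose.

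On the list for the extrinsic subunits of photosystem II, which shield and stabilise the water-splitting site, 4 of 5 loci rose and 1 fell. The median was 0.93 and the largest rise 1.16, and the locus Os07g0147500 fell by 6.26 on the log2 scale. Both loci listed for PsbS, the pH sensor of energy dissipation in which the minor antenna also takes part, rose by 1.92 and 1.93 on the log2 scale. By mean CPM the top 1% of tested genes included all 3 minor antenna loci, all 5 major LHCII loci, 4 LHCI loci, 4 extrinsic loci and 1 PsbS locus.

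**Figure D5:**
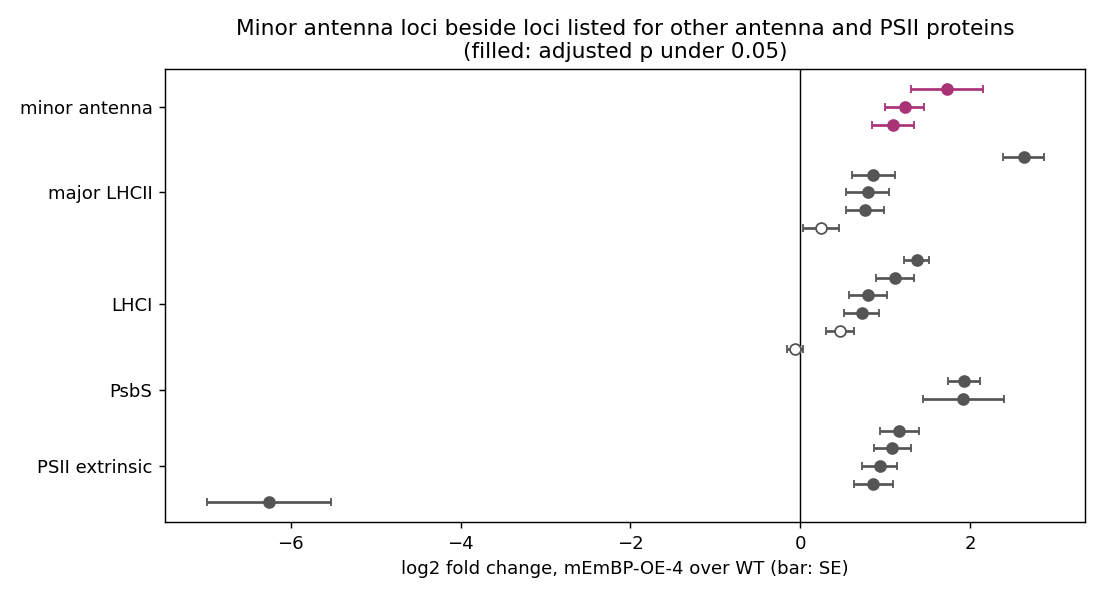
Log2 fold change (mEmBP-OE-4 over WT) with its standard error for each tested locus on 5 lists, filled where the adjusted p is under 0.05. The minor antenna loci (1.10 to 1.73) lie above the medians of the major LHCII (0.79), LHCI (0.76) and PSII extrinsic lists (0.93), and the locus at -6.26 belongs to the extrinsic list. The highest loci of these lists, at 2.63, 1.37 and 1.16, lie within or above the minor antenna range. Both PsbS loci (1.92 and 1.93) lie above it.

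The counts of the minor antenna rose more than those of the major LHCII list and of the LHCI list when all were summed within libraries. Over all libraries CP29 held 3213273 counts, CP26 3189687 and CP24 211140, so the minor antenna sum was mostly CP29 and CP26. The ratio of summed minor antenna counts to summed major LHCII counts was 0.310, 0.349, 0.315 and 0.323 in WT replicates 1 to 4 and 0.424, 0.435, 0.383 and 0.455 in mEmBP-OE-4. The groups did not overlap, and the log2 ratio was higher by 0.39 (SE 0.07) in mEmBP-OE-4, in 4 of 4 pairs (two-sided exact permutation p = 0.0286, adjusted p = 0.0286 over the 3 list ratios). Against LHCI the ratio was 0.494 to 0.543 in WT and 0.623 to 0.743 in mEmBP-OE-4, a difference in log2 ratio of 0.39 (SE 0.06, exact permutation p = 0.0286, adjusted p = 0.0286). Neither call was lost without any 1 of the 8 libraries (exact permutation, adjusted p = 0.0286 to 0.0429). Groups that are apart stay apart when a library is removed, so a kept call says little about its strength.

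Against the extrinsic subunits the difference was smaller. The ratio was 0.535 to 0.621 in WT and 0.630 to 0.722 in mEmBP-OE-4, and the log2 ratio was higher by 0.22 (SE 0.07, exact permutation p = 0.0286, adjusted p = 0.0286). This call was lost when any mEmBP-OE-4 library or WT replicate 1 or 2 was left out (exact permutation, adjusted p = 0.0571 in each case, with differences of 0.18 to 0.25). Removing a library cannot make groups overlap that were apart, and with so few libraries an exact p moves in coarse steps. The sums are carried by the most abundant loci, whereas a mean over loci weights each alike, including the extrinsic locus Os07g0147500 at -6.26. With the mean of log2 CPM over loci in place of the sums, no list ratio passed the test, and the differences were 0.27 for major LHCII (exact permutation, adjusted p = 0.143), 0.60 for LHCI and 1.90 for the extrinsic list (adjusted p = 0.0857 for each). Within same-numbered pairs the sums gave p = 0.125 for each list, the smallest that an exact test on 4 pairs can give.

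Each transcript was also set against each list sum. The ratio of CP29 counts to the major LHCII sum was 0.154 ± 0.00382 in WT and 0.210 ± 0.0194 in mEmBP-OE-4 (SD, n = 4), without overlap. The log2 difference was 0.44 (exact permutation p = 0.0286), but over the 9 ratios of 3 transcripts to 3 lists, a family chosen after the data were seen, its adjusted p was 0.0643. None of the 9 passed after adjustment, while 4 had an unadjusted exact permutation p of 0.0286. For CP24 the ratio to the major LHCII sum was 0.00812 ± 0.00348 in WT and 0.0148 ± 0.00527 in mEmBP-OE-4 (SD, n = 4), with overlapping groups and an exact permutation p of 0.0857 (adjusted p = 0.0964).

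No locus on the lists for the supply of the antenna passed in edgeR on TMM-scaled counts. On the list for chlorophyll breakdown 1 locus did. Of all tested genes 39.2% were called in either direction. The tested locus listed for chlorophyll b synthesis, a pigment of the minor antenna, changed by 0.45 on the log2 scale (SE 0.17), which missed the threshold in edgeR (adjusted p = 0.0578, unadjusted p = 0.0236). It passed with DESeq2, with the block, in the filter at 5 CPM and when mEmBP-OE-4 replicate 1 or 3 was left out. On library totals alone its direction turned, to -0.04, without a call. Of the 2 loci listed for the signal recognition particle that carries antenna proteins to the thylakoid, neither passed in edgeR on TMM-scaled counts or in DESeq2, 1 had an unadjusted p under 0.05, and their log2 fold changes were 0.998 and -0.08. The first of them averaged only 0.555 CPM in WT. With the block, and when replicate 1 of mEmBP-OE-4 or of both groups was left out, 1 of the 2 was called higher. On library totals alone 1 of the 2 was called lower and the median was -0.04. Of 4 loci listed for chlorophyll breakdown, 1 rose, by 0.82 on the log2 scale, and 3 missed the threshold. On library totals alone 2 of the 4 fell and the first no longer passed. Under that scaling 43.1% of all tested genes were called lower and 8.47% higher.

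The remaining lists gave mixed counts. Of 8 loci listed for the circadian clock, to which antenna transcripts are known to respond, 4 rose and 4 missed the threshold (median 0.48). Of all tested genes 20.1% were called higher. Only 1 rose when mEmBP-OE-4 replicate 2 or 4 or WT replicate 2 or 3 was left out, and 2 rose when WT replicate 1 or 4 was left out. On library totals alone the list turned to 3 lower with no locus higher, where 43.1% of all tested genes were called lower and 8.47% higher. The secondary wall list, for xylem and fibre cells, had 1 of its 3 loci tested, and this locus, at 0.0832 CPM in WT, passed the filter only through mEmBP-OE-4. Its summed level was 0.0423 to 0.127 CPM for WT and 2.0003 to 7.80 CPM for mEmBP-OE-4, its other 2 loci held 2 and 22 counts over all libraries, and none was at 0 throughout. The part of the clock and of wall-forming cells in the rise of the minor antenna was not tested.

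Many other genes followed the same pattern over the 8 libraries. The mean Pearson r of log2 CPM with CP29, CP26 and CP24 was highest for Os01g0182600, at 0.978, which is also on the circadian clock list. Next was Os02g0729400, likewise at 0.978. Their log2 fold changes were 0.72 and 0.72 (edgeR, adjusted p = 0.00684 and 0.00794), so they were alike in shape rather than in size of change. A locus on the list for the extrinsic subunits came close behind, at 0.977, with a log2 fold change of 1.16 (edgeR, adjusted p = 0.00362). In all, 1041 of 20687 other tested loci had a mean r of at least 0.9. Since the 3 transcripts themselves differ between the groups, this measure favours loci that differ in the same direction. By r with CP29 over the 8 libraries, CP26 ranked 99 and CP24 ranked 1529 among 20689 other loci. By r with CP26, CP29 ranked 138 and CP24 ranked 253, so the minor antenna transcripts were not each other's closest matches.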

How the data were processed

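The authors deposited whole-number raw read counts per gene for 4 WT and 4 mEmBP-OE-4 libraries, grouped here by their titles. Per the submitters' processing notes, FastQC, Trim Galore, STAR 2.5.3a, DESeq2 and build IRGSP-1.0 were used, with no role or order. Neither counter, strand setting nor annotation release is given in the sources used here, so reads shared with overlapping or antisense genes cannot be told apart.

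Low genes were removed by filterByExpr (minimum count 10, minimum total 15), and counts were scaled by TMM and tested across the whole table with edgeR 4.0.16 in R 4.3.3, without covariates, at an adjusted p of 0.05. A standard error is the size of the log2 fold change over the square root of F. Log2 CPM used a prior count of 2. The test was tried on simulated data. Ratios were compared by two-sided exact permutation.

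Replicates of a group differed beyond counting noise, by a chi-square of at least 6.20 per degree of freedom. Labels number the replicates 1 to 4 in each group. Deviations from group means had correlations for the same-numbered libraries of 0.641, 0.347, 0.189 and 0.104. Each was over 0.1, so comparisons by number were reported beside the unpaired ones. Correlations between libraries of different numbers were not computed, so these values do not show that the numbers pair the libraries. The members, the 9 other lists (37 loci recalled from memory, all in the table) and the rule for naming genes were chosen with earlier results of these data known. That rule named the members, the 2 loci most like them and, over the other lists, at most 2 loci in each direction by ID. Alternatives used DESeq2 1.42.0, limma-voom 3.58.1, other scalings and filters, the replicate block and the removal of libraries. No sequence or length of these genes was in the reference used here, so the planned promoter motif search was not run.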

Additional observations from a re-analysis of the deposited data

Results flagged for a closer look

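In mEmBP-OE-4 replicate 1 the ratio of CP26 counts to summed LHCI counts was 0.281, far below the 0.338 to 0.349 of the other 3 libraries of its group by Dixon's criterion. It was the only value picked out among 42 groups of 4 values, where chance gives about 1 in 20 groups.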

How the results depend on the processing

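All 3 minor antenna loci were called higher under each of the planned and added settings, and without any 1 library the log2 fold change ranged from 1.13 to 1.35 for CP29, 0.97 to 1.24 for CP26 and 1.42 to 1.97 for CP24. With the replicate block, which assumes that the numbers pair the libraries, CP24 was at 1.67 (SE 0.16, edgeR adjusted p = 1.24e-04). The block ended the calls of the 3 list ratios, at unmoved differences of 0.39, 0.39 and 0.22 (exact sign-flip p = 0.125 each), it added 1 call on each of the chlorophyll b synthesis, signal recognition particle and circadian clock lists, and it changed no other call named here. Without both replicate 1 libraries, an added setting, these differences were 0.36, 0.41 and 0.21 (exact permutation, adjusted p = 0.1, the smallest that 3 against 3 libraries can give). As means over loci they were 0.27, 0.60 and 1.90, where the extrinsic mean includes Os07g0147500 at a log2 fold change of -6.26. The other 4 extrinsic loci rose by 0.86 to 1.16 on the log2 scale, against 1.10 to 1.73 for the minor antenna loci. The 1.90 therefore does not describe the extrinsic loci that rose, and the difference of means without Os07g0147500 was not computed. Without any 1 library the differences of the sums ranged from 0.35 to 0.43, 0.36 to 0.44 and 0.18 to 0.26. The stricter filter, 5 CPM in 4 libraries, left 12157 genes tested and 5220 called in place of 8109. On library totals, 12324 were called without both replicate 1 libraries and 13109 with the block, both added settings. Over the 9 other lists the calls ranged from 13 to 23 without any 1 library. Depth did not limit the members, whose counting error was at most 1.06%.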

Other observations

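The loci next to CP29 by ID number also rose. The one before it had a log2 fold change of 1.75 (edgeR, adjusted p = 1.79e-04) at 6640 to 26611 counts per library, and the one after it 0.94 (adjusted p = 0.00110) at 9979 to 21176 counts, both chosen for their place after values were seen. The ID gives their order but not their distance or strand, and whether reads are shared with CP29 was not tested. Beside CP26 the loci held 245 to 571 counts, with a log2 fold change of 0.28 (adjusted p = 0.144), and 0 counts. Beside CP24 they held at most 4 and 2 counts.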
